A study of Mus musculus with 12 samples.

Results

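The comparison described here is that of Thpo knockout with wild-type hematopoietic stem cells when both kinds of mice had received the thrombopoietin pathway agonist Romiplostim. Its members are all genes with an FPKM (fragments per kilobase of gene, scaled to library depth) of at least 1 in at least 3 of the 6 treated libraries, which were 11832 of the 35275 genes in the deposited table. The treated groups were Thpo-/- and Thpo+/+ mice of the C57BL/6 strain, with 3 libraries each, that were given 100 µg/kg Romiplostim a day by the intravenous route for 10 days. The other libraries enter the shared estimate of spread in the main fit, and their values are used only where stated. They were 3 of untreated Thpo-/- and 3 of untreated Thpo+/+ mice, of the same strain. The labels call these untreated, while the treatment protocol names PBS for controls. The labels give no age, do not say how many mice made up a library or whether replicates came from separate mice, and do not describe the knockout allele, so the p-values measure the spread between these libraries, which may be technical.

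Thrombopoietin is a circulating hormone, made mainly in the liver, that acts on megakaryocytes, platelets and hematopoietic stem cells. It signals through the kinase Jak2 to the transcription factors Stat5a, Stat5b and Stat3 and to the Ras and PI3-kinase pathways. In stem cells this signal is known for keeping cells quiescent and maintained after birth. Mice without thrombopoietin have few platelets and few stem cells. Romiplostim is a peptide-carrying Fc fusion protein that activates this pathway without resembling thrombopoietin in sequence, so it can act in mice that lack the hormone.

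Depth, estimated from the steps between low FPKM values, was 27.7 to 35.6 M fragments per library. The cells went by flow cytometry into lysis reagent, and the amplified cDNA libraries were not stranded. The series' design text places the 3 samples of a group together on a sequencing run, so run and group cannot be told apart in any comparison here. Thpo itself (ENSMUSG00000022847, mm10 chromosome 16, 20724454 to 20734511) was listed at 0 in 5 of the 6 treated libraries and at 0.0426 FPKM in wild-type library 2, where 3 fragments correspond to 0.0402 FPKM, so its RNA does not check the genotype labels in these cells. The 3 treated knockout libraries and treated wild-type library 1 carried Xist at 20.1 to 41.3 FPKM and Y-linked genes near 0, whereas treated wild-type libraries 2 and 3 carried Y-linked genes such as Eif2s3y at 47.1 and 53.6 FPKM. Sex is therefore unbalanced between the treated groups. The untreated libraries enter the untreated and interaction comparisons and, through the shared estimate of spread, the treated comparison. Of these, knockout libraries 1 and 3 carried both Xist (4.91 and 8.7 FPKM) and Eif2s3y (35.9 and 30.7 FPKM). Wild-type library 2 carried Xist at 40.2 FPKM with Eif2s3y at 0.376 FPKM, and the other 3 carried Eif2s3y at 63.5 to 68.6 FPKM with Xist at up to 0.203 FPKM. The treated knockout group was also the most scattered, with a median standard deviation per gene of 0.249 on the log2(FPKM + 1) scale against 0.123 in treated wild type. On the first principal component of the 6 libraries, with 53.9% of the variance, knockout library 1 lay at 49.9, knockout libraries 3 and 2 at 19.7 and 1.37, and the wild-type libraries between -25.5 and -21.5.

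The labelled cell type was checked against stem cell markers. All 10 markers on that list, among them Procr, Slamf1, Hlf and Mecom, were detected, and their summed FPKM was 862 to 1484 in treated knockout and 1240 to 1530 in treated wild type, so the groups overlapped. Markers of other blood cells were present too. Erythroid markers summed to 536 to 1190 FPKM in treated knockout and 60.4 to 131 in treated wild type, and macrophage markers to 44.5 to 89.8 and 10.1 to 18.4. B cell markers ranged from 61.4 to 385 in treated knockout and from 64.1 to 64.7 in treated wild type, with the defining marker Pax5 under 0.1 FPKM in all 3 wild-type libraries. Myeloid markers overlapped, at 2775 to 3949 FPKM in knockout and 1564 to 5549 in wild type. In bulk samples such as these, fewer cells of a type and less RNA per cell cannot be told apart, and the part of other cell types in the differences below was not tested.

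**Figure D1:**
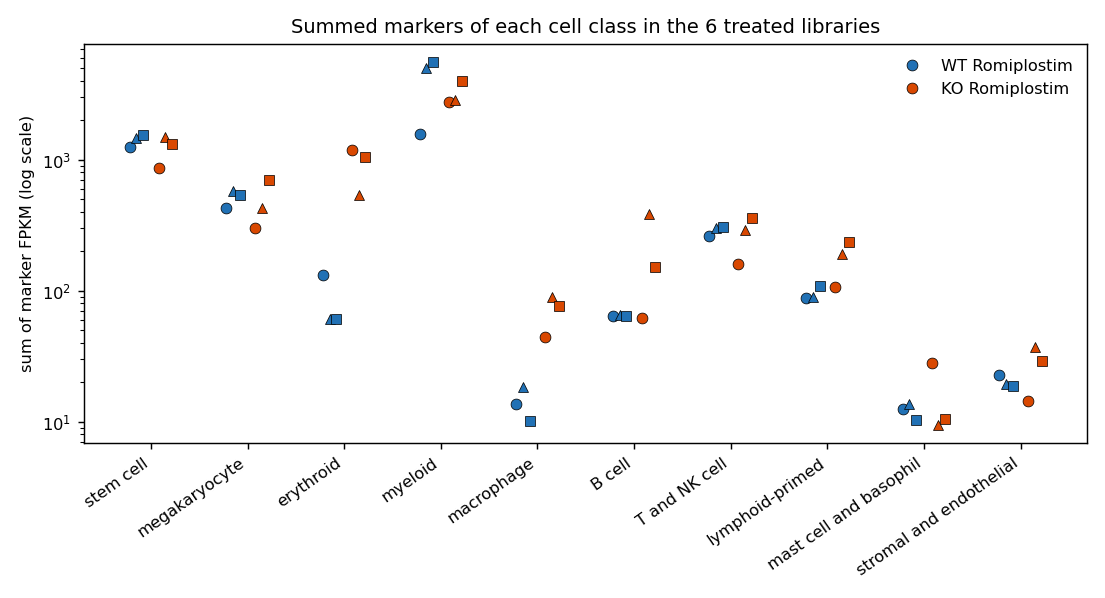
Summed FPKM of fixed marker genes for 10 cell classes (log axis) in each treated library, with wild type in blue and knockout in orange, and circle, triangle and square for libraries 1, 2 and 3. The erythroid sums (536 to 1190 against 60.4 to 131) and the macrophage sums (44.5 to 89.8 against 10.1 to 18.4) do not overlap between genotypes, whereas the stem cell and myeloid sums do.

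Under Romiplostim, the genes that were higher in knockout than in wild type included 14 erythroid, 9 B cell and 6 macrophage genes, and those that were lower included 3 stem cell identity and 3 megakaryocyte and platelet genes. A total of 238 genes passed an adjusted p under 0.05 in limma's moderated test, which was 2.01% of the 11832 tested. Of these, 105 (0.887%) were higher and 133 (1.12%) lower in knockout. Rises were the larger changes: 92 of the 105 reached 2-fold on the log2(FPKM + 1) scale, as did 65 of the 133 falls. The median difference over all tested genes was -0.09 (log2), and 7363 of the 11832 genes had a negative difference. The 3 knockout and 3 wild-type libraries did not overlap for any of the 238 genes, while 24.4% of all tested genes had groups that did not overlap, 8.60% with knockout higher and 15.8% with knockout lower. The test took its spread from all 12 libraries, and with only the 6 treated libraries in the fit 68 genes passed. Leaving out knockout library 2 raised the number of calls to 1709, with 333 higher and 1376 lower. Leaving out wild-type library 1, 2 or 3 lowered it to 79, 67 or 60. With Y-linked expression as a covariate, an alternative chosen after seeing the data, 38 genes passed.

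The calls followed particular libraries within the knockout group. Knockout library 1 was the highest of the 3 for 63 of the 105 genes that rose and the lowest of the 3 for 107 of the 133 that fell. Knockout library 2 was the highest for 32 of the rises and knockout library 3 for 10. For 45 of the 105 rises every treated wild-type library was under 1 FPKM, so these genes were nearly silent in wild type under the agonist. Such genes passed the filter only through the knockout libraries and had to differ, so no fall could be of this kind.

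Of the gene lists, the erythroid list had the most rises (14). The B cell list had the larger median difference (2.10 against 1.52, log2) and the larger share of rises among its tested genes (9 of 15 against 14 of 31). These values include 5 B cell and 8 erythroid genes that passed the filter only through the knockout libraries and had to differ. Among members with a treated wild-type mean of at least 1 FPKM, 5 of 10 B cell and 8 of 22 erythroid genes rose. Of all tested genes with such a mean 55 of 11617 rose. Car1 (ENSMUSG00000027556, chromosome 3, 14766216 to 14808368), the carbonic anhydrase of early red cell precursors, stood at 5804, 600 and 797 FPKM in the treated knockout libraries and at 2.45, 0.346 and 5.0 FPKM in the treated wild-type libraries. All 3 knockout libraries were thus far above all 3 wild-type libraries, and knockout library 1 stood well apart from the other knockout libraries. The difference was 8.86 ± 0.70 (log2, SE; limma adjusted p = 0.000154). Without treatment Car1 was at 2309, 1994 and 2023 FPKM in knockout and at 110, 160 and 156 FPKM in wild type. Its genotype difference was larger with the agonist than without it, by 4.96 (log2; limma adjusted p = 0.00978), and the wild-type values were lower in the treated than in the untreated libraries.

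Further erythroid membrane genes showed the same arrangement of libraries. Rhd, which encodes the Rh blood group antigen, was at 196, 41.7 and 37.7 FPKM in treated knockout and at 0.833, 0.127 and 0.464 FPKM in treated wild type (5.57 ± 0.46 log2, limma adjusted p = 0.000154). Ermap, a red cell adhesion receptor that carries the Scianna blood group, was at 172, 18.7 and 44.5 against 0.0574, 0.0612 and 0.0746 FPKM (5.66 ± 0.56 log2, limma adjusted p = 0.000466). Cldn13, a claudin of mouse red cell precursors, was at 146, 22.3 and 30.9 against 0.340, 0 and 0.121 FPKM. In each of these genes knockout library 1 had the highest value and no wild-type library reached 1 FPKM. Kel, the Kell blood group metalloprotease, and Klf1, the master transcription factor of red cell genes, were named after their values were seen. Klf1 stood at 252, 58.0 and 48.2 FPKM in treated knockout and at 14.8, 8.94 and 9.06 FPKM in treated wild type (2.96 ± 0.46 log2, limma adjusted p = 0.00803). With the Y-linked covariate Klf1 did not pass (limma adjusted p = 0.102).

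The starts of Rhd and Kel both carry the letters AGATAA, the motif bound by GATA factors such as the erythroid factor Gata1, and are shown because these genes rose together. The windows are RefSeq sequence of GRCm38.p6, 5′ to 3′ on the strand of the gene, with the motif in capitals. That of Rhd is chr4:134864416-134864535 on the plus strand and runs up to the RefSeq start. That of Kel is chr6:41704340-41704445 on the minus strand and ends 15 bases before the RefSeq start.
Rhd: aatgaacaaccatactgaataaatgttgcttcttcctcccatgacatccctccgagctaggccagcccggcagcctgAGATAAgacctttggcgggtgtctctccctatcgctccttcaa
Kel: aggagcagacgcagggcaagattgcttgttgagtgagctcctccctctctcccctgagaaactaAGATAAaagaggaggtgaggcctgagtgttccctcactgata
The motif begins 43 bases before the start in Rhd and 56 bases before it in Kel. Searched on both strands in the 250 bases before the first listed start, AGATAA occurred in 10.3% of 27025 genes. It occurred in 4 of the 11 erythroid genes that rose and had a promoter in the table, a match being a description and not a binding site. Kel itself was at 43.6, 9.91 and 10.3 FPKM in treated knockout and at 1.07, 0.917 and 1.45 FPKM in treated wild type (3.05 ± 0.42 log2, limma adjusted p = 0.0037).

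Of the 35 erythroid genes in the table, 31 were tested, and 14 rose and none fell, where 0.887% of all tested genes rose. Among the tested members, 8 passed the filter only through the knockout libraries and had to differ, so the count over members expressed in wild type is the more informative. Of the 22 members with a treated wild-type mean of at least 1 FPKM, 8 rose, where 55 of all 11617 such tested genes did. The median difference of the 31 was 1.52 (log2), against -0.09 over all genes. The α-globin genes Hba-a1 and Hba-a2 are nearly identical in sequence, so the split of reads between them is uncertain. Hba-a1 was at 369, 196 and 402 FPKM in treated knockout and at 36.2, 6.13 and 8.78 FPKM in treated wild type, and here knockout library 3 was the highest. Tfrc, the transferrin receptor that brings iron into red cell precursors, was at 74.8, 23.1 and 26.7 against 10.8, 12.3 and 12.8 FPKM. Car1, Rhd, Ermap, Cldn13 and Kel remained past the threshold when any 1 of the 6 libraries was left out, whereas Hba-a1 did not without knockout library 1 or 3 or wild-type library 2 or 3 (limma adjusted p up to 0.105), and Tfrc did not without knockout library 3 or any 1 wild-type library (up to 0.152). The number of erythroid genes that rose was 7 to 19 when each library was left out in turn, with 19 without knockout library 2 and 7 without wild-type library 2 or 3. It was 6 with the Y-linked covariate and 12 with only the 6 treated libraries in the fit. With that covariate Hba-a1 and Tfrc did not pass (limma adjusted p = 0.21 and 0.225).

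**Figure D2:**
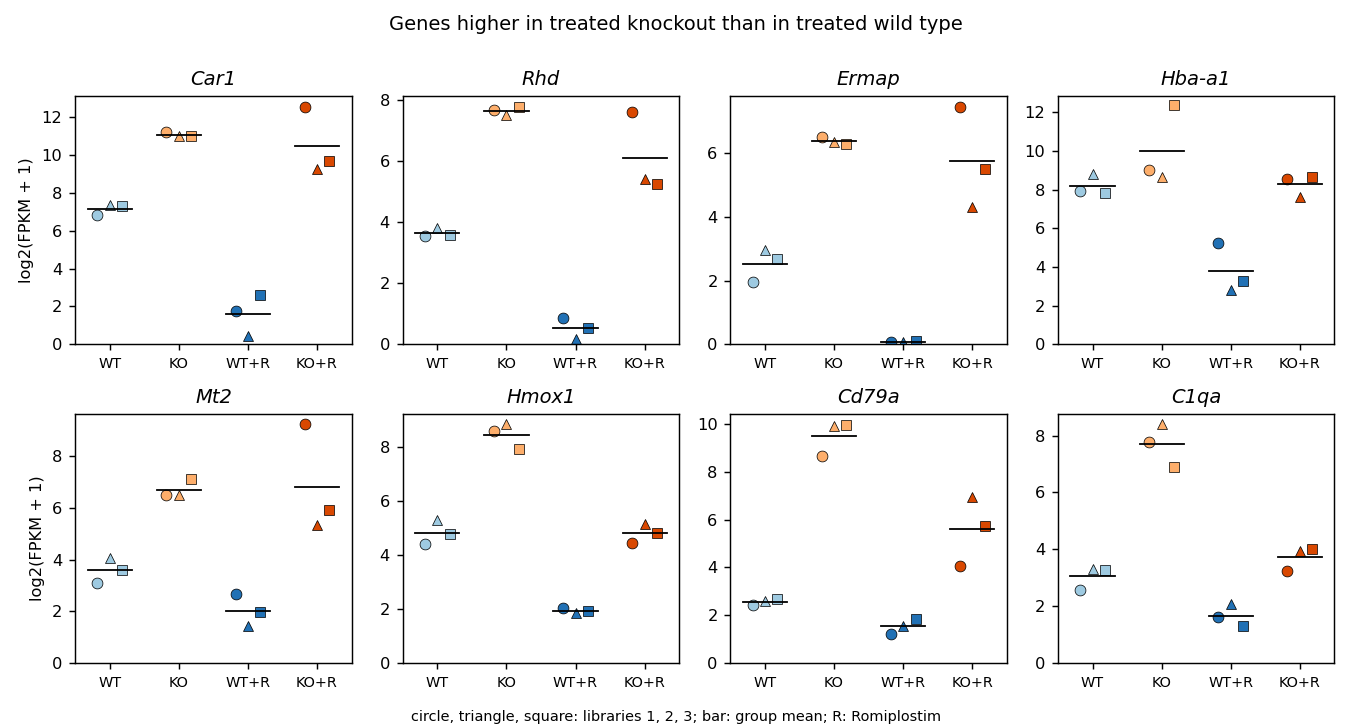
Values of 8 genes in all 12 libraries on the log2(FPKM + 1) scale, with wild type (WT), knockout (KO) and the same groups on Romiplostim (WT+R, KO+R) along the axis. In the 8 genes all treated knockout libraries lie above all treated wild-type libraries, for example Rhd at 37.7 to 196 FPKM against 0.127 to 0.833.

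Other large rises were in transporters and enzymes. Sphk1, which makes the lipid signal sphingosine 1-phosphate, was at 118, 19.5 and 15.2 FPKM in treated knockout and at 0.0865, 0.0461 and 0.169 FPKM in treated wild type. Slc38a5, a glutamine transporter, was at 109, 20.3 and 18.4 against 0.391, 0.139 and 0.106 FPKM. Tspo2, a cholesterol-binding protein of red cell precursors, was at 138, 21.4 and 28.6 against 1.10, 1.17 and 0.715 FPKM. Slc25a21, a mitochondrial oxodicarboxylate carrier, and Prss50, a serine protease of the testis, rose by 4.13 ± 0.52 and 4.70 ± 0.52 (log2, SE; limma adjusted p = 0.00217 and 0.000722). In all 5 genes knockout library 1 was the highest library, and all 5 kept their call without each of the 6 libraries and with the Y-linked covariate. Ctse, the aspartic protease cathepsin E, was at 130, 48.9 and 45.3 against 16.8, 15.8 and 14.8 FPKM. It was the single gene of 42 tested for autophagy and lysosome that rose, where 0.887% of all tested genes rose. Ctse did not pass with the Y-linked covariate (limma adjusted p = 0.121).

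Mt1 and Mt2, the widely expressed metallothioneins, rose. These small proteins bind zinc and copper and are induced by metals through the factor Mtf1, which binds metal response elements with the core TGCNCNC. The 240 bases before the RefSeq start of Mt2 (GRCm38.p6, chr8:94172378-94172617, plus strand) are shown because they hold 5 copies of this core, counted on both strands and given in capitals.
Mt2: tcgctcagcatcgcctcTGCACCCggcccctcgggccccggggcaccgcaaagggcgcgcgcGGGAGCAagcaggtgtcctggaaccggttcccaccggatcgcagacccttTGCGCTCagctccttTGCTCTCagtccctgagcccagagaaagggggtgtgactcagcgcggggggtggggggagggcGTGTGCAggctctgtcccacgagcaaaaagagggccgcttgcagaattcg
At least 1 copy occurred in the 250 bases before the start of 43.8% of 27025 genes, and 5 or more in 0.311%. Mt2 was at 603, 39.4 and 59.0 FPKM in treated knockout and at 5.34, 1.71 and 2.89 FPKM in treated wild type (4.81 ± 0.76 log2, limma adjusted p = 0.00838). Mt1 was at 1458, 201 and 293 against 115, 86.1 and 79.0 FPKM (2.25 ± 0.52 log2, limma adjusted p = 0.0489). Knockout library 1 was again the highest in both. Without knockout library 1 the differences were still past the threshold, Mt1 then being 1.39 (log2), but Mt1 was not past it without knockout library 3 or any 1 wild-type library (limma adjusted p up to 0.182), and neither passed with the Y-linked covariate (0.302 and 0.116 for Mt1 and Mt2).

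Genes of iron-recycling macrophages were also higher in treated knockout. Hmox1, the enzyme that opens the heme ring and frees its iron, was at 20.7, 34.9 and 27.0 FPKM in treated knockout and at 3.08, 2.59 and 2.80 FPKM in treated wild type (2.87 ± 0.27 log2, limma adjusted p = 0.000398). Here the knockout libraries lay close together and library 1 was the lowest of them. Slc40a1, the iron exporter ferroportin, was at 40.0, 22.9 and 16.0 against 3.12, 3.91 and 3.62 FPKM (2.49 ± 0.34 log2, limma adjusted p = 0.00359). The complement gene C1qa was at 8.53, 14.3 and 15.1 against 2.06, 3.18 and 1.48 FPKM, and Fcna, a ficolin of macrophages, at 4.55, 8.23 and 9.82 against 0.852, 0.982 and 0.266 FPKM. Knockout library 1 was the lowest of its group in C1qa and Fcna but the highest in Slc40a1, as in Car1. The table held 24 macrophage genes, of which 13 were tested. Among these 6 rose and none fell, with a median of 1.39 (log2), where 0.887% of all tested genes rose. Of the 13, 2 passed the filter only through the knockout libraries, Fcna among them. Of the 11 with a wild-type mean of at least 1 FPKM 5 rose, where 55 of all 11617 such tested genes did. Hmox1 was the single gene of 35 tested for the NRF2 antioxidant response that rose, and none of them fell. Hmox1 and Slc40a1 kept their call without each of the 6 libraries and with the Y-linked covariate, whereas C1qa lost it without wild-type library 1 or 3 and Fcna without wild-type library 3 (limma adjusted p up to 0.0707 and 0.0592). The count of 6 fell to 2 without wild-type library 3 or with the covariate. It stayed at 6 with only the 6 treated libraries in the fit.

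Lymphoid genes rose as well, with another knockout library in the lead. Cd79a, a signalling chain of the B cell receptor, was at 15.9, 122 and 52.9 FPKM in treated knockout and at 1.33, 1.96 and 2.54 FPKM in treated wild type (4.05 ± 0.55 log2, limma adjusted p = 0.0036). Igll1, a surrogate light chain of pre-B cells, was at 16.4, 143 and 31.0 against 0.662, 2.06 and 2.46 FPKM. Dntt, the polymerase that adds bases at antigen receptor joints, was at 6.69, 52.6 and 27.7 against 1.46, 2.6 and 1.90 FPKM (2.95 ± 0.61 log2, limma adjusted p = 0.0303). In these genes knockout library 2 was the highest and knockout library 1 the lowest of its group, whereas knockout library 1 was the highest in Car1, Rhd, Ermap, Cldn13 and Klf1. Of 26 B cell genes 15 were tested and 9 rose, with a median of 2.10 (log2), and none fell. Over all tested genes 0.887% rose. Of the 15, 5 passed the filter only through the knockout libraries. Of the 10 with a wild-type mean of at least 1 FPKM 5 rose, where 55 of all 11617 such tested genes did. The 105 rises included 8 immunoglobulin or T cell receptor segments. Cd79a kept its call without each of the 6 libraries, Igll1 lost it without wild-type library 1 (limma adjusted p = 0.0522) and Dntt without knockout library 3 or any 1 wild-type library (up to 0.112). The 9 B cell calls became 3 to 10 when each library was left out, with 3 without wild-type library 1 or 3 and 4 without knockout library 3 or wild-type library 2, and 3 with the Y-linked covariate. With only the 6 treated libraries in the fit, 1 B cell gene rose.

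Among T and NK cell genes the calls were at lower levels. Klrd1 and Klrk1, which encode the NK receptors CD94 and NKG2D, were at 2.82, 6.67 and 6.61 and at 1.82, 4.72 and 3.98 FPKM in treated knockout, and at 0.468, 0.899 and 1.19 and at 0.300, 0.641 and 0.258 FPKM in treated wild type. Both rose and kept their call without each library. Of 22 tested T and NK cell genes 4 rose, as did 3 of 15 lymphoid-primed genes, and none of either fell. Over all tested genes 0.887% rose. Of the tested genes, 3 of the T and NK cell list and 1 of the lymphoid-primed list passed the filter only through the knockout libraries. Among members with a wild-type mean of at least 1 FPKM, 1 of 17 T and NK cell genes and 2 of 14 lymphoid-primed genes rose. Of all tested genes with such a mean 55 of 11617 rose. The 4 became 2 without knockout library 3 or any 1 wild-type library, and the 3 became 0 without the same libraries. With only the 6 treated libraries in the fit, no gene of either list passed. In the myeloid list Ly86, which encodes the partner of the receptor RP105, rose (1.6 ± 0.34 log2, limma adjusted p = 0.0352) but not without knockout library 3 or any 1 wild-type library (up to 0.127), and the other tested genes of 29 did not pass. The neutrophil enzyme gene Mpo was at 68.5, 197 and 148 FPKM in treated knockout and at 75.5, 174 and 128 FPKM in treated wild type, which overlapped. None of 17 tested stromal and endothelial genes passed limma's test, with a median of 0.51 (log2). Of these, 7 had an unadjusted p under 0.05, as did 2400 of all 11832 tested genes. The defining markers Col1a1 and Cdh5 were under 0.1 FPKM in the 3 treated wild-type libraries.

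Among the falls the largest was Plscr2 (ENSMUSG00000032372, chromosome 9, 92275602 to 92297752), a phospholipid scramblase that is also on the list of genes raised in aged stem cells. Plscr2 was at 4.94, 4.20 and 4.48 FPKM in treated knockout and at 50.4, 32.9 and 31.2 FPKM in treated wild type (-2.79 ± 0.28 log2, limma adjusted p = 0.000466). The 3 knockout libraries lay close together and all were far below wild type. Chad, which encodes the matrix protein chondroadherin, was at 1.87, 3.97 and 2.65 against 19.6, 14.9 and 12.5 FPKM (-2.13 ± 0.23 log2, limma adjusted p = 0.00064). Without treatment the differences were -2.62 and -2.10 (log2), and neither gene passed the test of a difference between the treated and untreated genotype gaps (limma adjusted p = 0.808 and 0.964). Phlda2, an imprinted gene that is not on the list of imprinted genes used here, was at 14.3, 19.7 and 18.6 against 47.6, 49.1 and 51.8 FPKM. Art4, an ADP-ribosyltransferase gene of the Dombrock blood group and of the ageing list, was at 13.2, 20.0 and 13.3 against 45.6, 41.6 and 38.8 FPKM. Of 29 tested ageing genes 3 fell (Plscr2, Art4 and Itgb3) and 2 rose (Mt1 and Mt2), so the calls went in both directions. Over all tested genes 1.12% fell and 0.887% rose. The list's median was -0.43 (log2), against -0.09 over all genes. A negative difference was found in 23 of the 29 and in 7363 of all 11832 tested genes. The list's 3 falls became 7 without knockout library 2, where 1376 of all 11832 tested genes fell. Plscr2, Chad, Phlda2 and Art4 kept their call without each of the 6 libraries and with the Y-linked covariate.

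A further set of falls did not pass the test, or had the opposite sign, without the agonist. Hes1 (ENSMUSG00000022528, chromosome 16, 30064384 to 30067796), a repressor induced by Notch signalling, was at 3.13, 7.63 and 3.52 FPKM in treated knockout and at 21.2, 20.5 and 19.8 FPKM in treated wild type (-1.98 ± 0.30 log2, limma adjusted p = 0.00694). Without treatment it was at 18.5, 40.5 and 25.6 FPKM in knockout and at 9.97, 6.31 and 7.06 FPKM in wild type, a difference of 1.69 (log2, limma adjusted p = 0.000902). The order of the genotypes was therefore opposite in the 2 conditions, without overlap in either. Serpinb1a, an inhibitor of neutrophil proteases, was the other fall with a call in the opposite direction in untreated mice, at 36.3, 70.3 and 78.9 against 141, 136 and 135 FPKM under treatment. Serpinb1a was named after its values were seen. Ffar2, a receptor for short-chain fatty acids, was at 3.03, 4.63 and 4.28 against 12.7, 23.3 and 23.1 FPKM under treatment and overlapped between genotypes without it. Bcas1 was at 1.63, 2.93 and 1.93 against 6.12, 7.43 and 8.31 FPKM, and Il18r1, a chain of the interleukin 18 receptor, at 0.948, 2.11 and 2.28 against 5.25, 5.17 and 5.48 FPKM. Il18r1 was the single call among 31 cytokine receptor genes, where 2.01% of all tested genes were called. Without knockout library 2 that list held 7 falls, where 1376 of all 11832 tested genes fell. The genotype differences of Hes1, Serpinb1a, Ffar2, Bcas1 and Il18r1 each differed between treated and untreated mice, with limma adjusted p for the interaction of 0.00093, 0.00875, 0.00571, 0.00369 and 0.0119. Hes1, Ffar2, Bcas1 and Il18r1 kept their call without each of the 6 libraries, and Serpinb1a lost it without knockout library 1 or any 1 wild-type library (limma adjusted p up to 0.152). None of the 5 passed with the Y-linked covariate, where Hes1 had an adjusted p of 0.0846.

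Other falls fell into several functions. Actr3b, an actin-related protein of the branched actin complex, was at 3.83, 7.31 and 5.05 FPKM in treated knockout and at 18.7, 24.9 and 24.1 FPKM in treated wild type. Ndrg1, a gene induced by hypoxia and differentiation, was at 14.6, 13.8 and 20.8 against 38.9, 55.0 and 48.6 FPKM. Tnfsf13os overlaps Tnfsf13 on the opposite strand, and reads of the pair cannot be told apart in an unstranded library, so its value of 11.9, 7.10 and 13.8 against 39.5, 41.0 and 53 FPKM is uncertain in origin. Ctla2a, a cysteine protease inhibitor, was at 149, 249 and 343 against 817, 803 and 621 FPKM. Trim47, Bhlhe40 and Pdcd1lg2 fell by 1.68 ± 0.33, 1.81 ± 0.42 and 1.52 ± 0.32 (log2, SE; limma adjusted p = 0.0236, 0.0489 and 0.0329). Trim47 encodes an E3 ubiquitin ligase, Bhlhe40 a repressor linked to the circadian clock and hypoxia, and Pdcd1lg2 the ligand PD-L2. Trim47 and Bhlhe40 kept their call only without knockout library 2 among the 6 left out (limma adjusted p otherwise up to 0.102 and 0.199). Pdcd1lg2 lost it without knockout library 1 or 3 or wild-type library 2 or 3 (up to 0.164) and Ctla2a without any 1 wild-type library (up to 0.0967). Actr3b, Ndrg1 and Tnfsf13os kept it without each library. With the Y-linked covariate Actr3b and Tnfsf13os passed, whereas Ndrg1 did not (limma adjusted p = 0.0631).

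**Figure D3:**
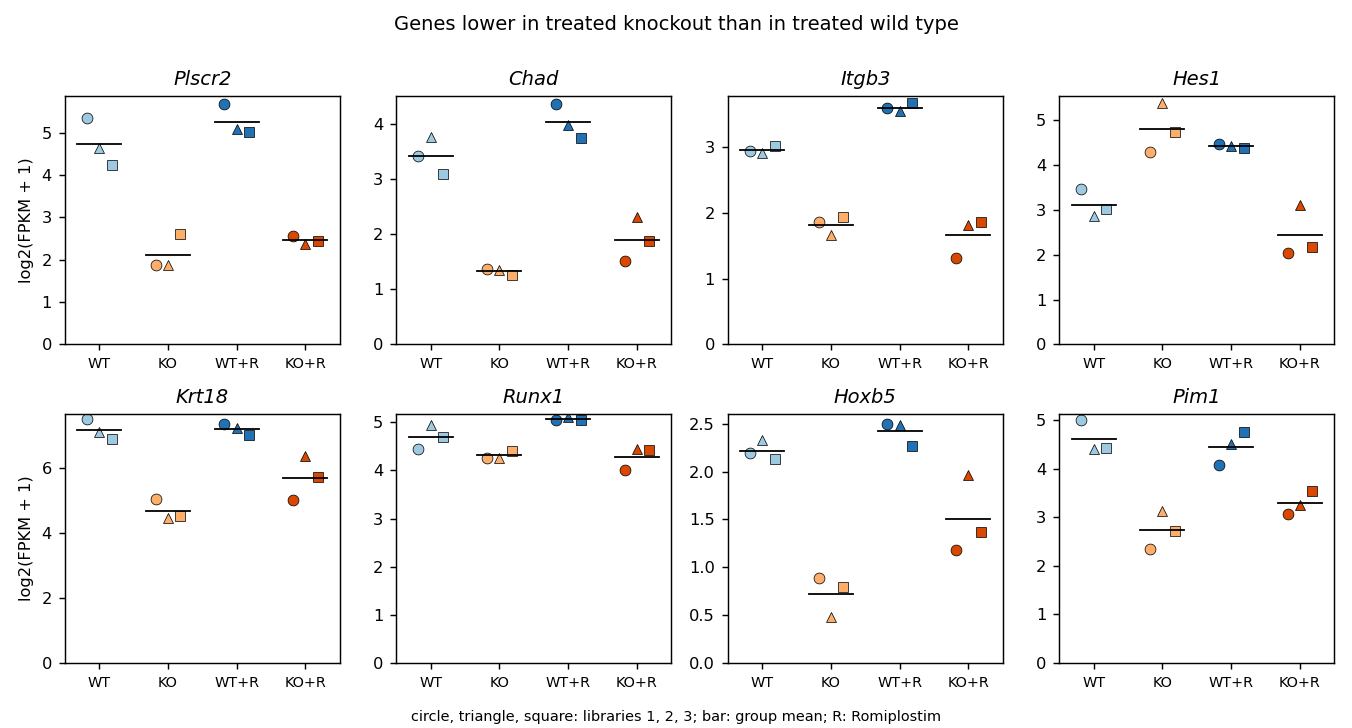
Values of 8 genes in all 12 libraries on the log2(FPKM + 1) scale, drawn in the same way as the plot of genes that rose. All treated knockout libraries lie below all treated wild-type libraries in the 8 genes, and Hes1 has the opposite order without treatment (18.5 to 40.5 FPKM in knockout against 6.31 to 9.97 in wild type).

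Most stem cell identity genes had values below wild type under the agonist, but few passed the test. Of 37 tested members 3 fell and none rose, with a median of -0.57 (log2) against -0.09 for all genes, while 1.12% of all tested genes fell. The 3 were Krt18, a keratin, Hoxb5, a homeobox gene of long-term stem cells, and Runx1, a transcription factor of definitive blood formation. Krt18 was at 30.9, 81.0 and 51.5 FPKM in treated knockout and at 161, 149 and 128 FPKM in treated wild type. Runx1 was at 15.1, 20.8 and 20.3 against 32.2, 33.7 and 32.1 FPKM (-0.79 ± 0.15 log2, limma adjusted p = 0.0236). Hoxb5 was at 1.26, 2.91 and 1.59 against 4.66, 4.63 and 3.82 FPKM and was the single call among 11 tested Hox and Meis genes, all of which had a negative difference. The count of 3 became 17 without knockout library 2, where 1376 of all 11832 tested genes fell, and 1 without knockout library 1 or 3. It became 0 without any 1 wild-type library, with the Y-linked covariate or with only the 6 treated libraries in the fit. Without overlap between the groups, 15 of the 37 were lower in knockout and none higher, where 15.8% and 8.60% of all tested genes were.

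Several surface markers by which stem cells are sorted had overlapping values, whereas Cd34 and Esam were lower in knockout without overlap. Cd34 was at 33.1, 84.9 and 76.4 FPKM in treated knockout and at 120, 110 and 124 FPKM in treated wild type (limma adjusted p = 0.117). Esam was at 91.5, 261 and 179 against 307, 273 and 285 FPKM (limma adjusted p = 0.151). Procr, the endothelial protein C receptor, was at 50.5, 122 and 82.2 FPKM in treated knockout and at 81.1, 110 and 108 FPKM in treated wild type (-0.30 ± 0.25 log2, limma adjusted p = 0.521). In untreated mice Procr was at 22.2, 18.2 and 16.5 against 130, 141 and 151 FPKM, and the difference between the 2 genotype gaps was 2.53 (log2, limma adjusted p = 0.00235). Ly6a, which encodes Sca-1, and Hlf, a stem cell transcription factor, had differences of 0.04 and -0.15 (log2) under the agonist. Slamf1, which encodes CD150, was at 16.9, 36.6 and 28.8 against 37.4, 35.5 and 35.9 FPKM, with knockout library 1 the lowest of the 6. Cd48, a surface protein of progenitors that is low on long-term stem cells, was at 94.5, 119 and 195 against 80.2, 78.8 and 96.7 FPKM (limma adjusted p = 0.244). In 13 of the 37 identity genes the genotype difference moved upwards from the untreated to the treated comparison by the interaction test, and in none downwards, where 5.31% of all tested genes moved upwards and 7.95% downwards.

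The pathway that the agonist engages showed no gene past the threshold. None of the 29 thrombopoietin signalling genes passed limma's test, with a median of -0.13 (log2), and 5 of them had an unadjusted p under 0.05, all lower. Over all tested genes 2400 of the 11832 had an unadjusted p under 0.05. Jak2, the kinase of the pathway, and Stat5a differed by 0.12 and -0.30 (log2). Stat3 was at 45.9, 78.2 and 69.7 FPKM in treated knockout and at 98.9, 104 and 108 FPKM in treated wild type, without overlap (-0.71 ± 0.17 log2, limma adjusted p = 0.0513). The adaptor Grb2 was also below wild type in all 3 libraries, at -0.47 ± 0.12 (log2, SE; limma adjusted p = 0.0639). When knockout library 2 was left out, 5 members passed as falls, as did 1376 of all 11832 tested genes.

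The list of STAT5 targets held a single call among 19 tested, a fall, where 1.12% of all tested genes fell. Pim1, a survival kinase induced by cytokines, was at 7.37, 8.5 and 10.7 FPKM in treated knockout and at 15.9, 21.8 and 26.0 FPKM in treated wild type (-1.16 ± 0.24 log2, limma adjusted p = 0.031). It was not past the threshold without knockout library 1 or wild-type library 2 or 3 (up to 0.149), or with the Y-linked covariate (0.279). A negative difference was found in 17 of the 19 tested targets and in 7363 of all 11832 tested genes, with medians of -0.57 and -0.09 (log2). Without knockout library 2, 7 targets fell, where 1376 of all 11832 tested genes did. With only the 6 treated libraries in the fit no target passed. The feedback inhibitor Cish was at 14.4, 33.4 and 13.7 against 25.4, 36.1 and 36.4 FPKM, and Socs2, of the same family, at 86.5, 220 and 133 against 195, 245 and 244 FPKM. In both the groups overlapped, and neither passed (limma adjusted p = 0.213 and 0.2). In untreated mice Cish was at 3.22, 3.86 and 4.24 against 39.9, 58.3 and 28.9 FPKM and Socs2 at 8.29, 13.1 and 12.4 against 106, 60.2 and 72.5 FPKM. The genotype gap narrowed by 2.39 in Cish and by 1.97 in Socs2 (log2; limma adjusted p = 0.00724 and 0.0131 for the interaction). Ccnd1, the gene for cyclin D1, had the opposite sign, at 0.95 ± 0.25 (log2, SE; limma adjusted p = 0.0642).

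Megakaryocyte and platelet genes gave 3 falls among 38 tested and no rise, with a median of -0.25 (log2). Over all tested genes 1.12% fell and 0.887% rose. Itgb3 (ENSMUSG00000020689, chromosome 11, 104608000 to 104670476), the β3 integrin that pairs with Itga2b to form the platelet fibrinogen receptor, was at 1.49, 2.50 and 2.64 FPKM in treated knockout and at 11, 10.6 and 11.6 FPKM in treated wild type (-1.93 ± 0.16 log2, limma adjusted p = 0.000154). Its partner Itga2b was at 35.4, 61.2 and 62.9 against 130, 122 and 112 FPKM (-1.22 ± 0.29 log2, limma adjusted p = 0.0518), without overlap. Mmrn1, the gene for the platelet protein multimerin, was at 10.6, 19.6 and 15.1 against 35.2, 29.5 and 29.4 FPKM, and Gng11, a G protein subunit, at 43.0, 89.1 and 65.7 against 137, 140 and 128 FPKM. The von Willebrand factor gene Vwf differed by -0.15 ± 0.27 (log2, SE; limma adjusted p = 0.788). Itgb3 kept its call in every alternative run, while Mmrn1 and Gng11 kept it only without knockout library 2 among the 6 left out. The 3 falls became 10 without knockout library 2, where 1376 of all 11832 tested genes fell, and 1 without each of the others. With only the 6 treated libraries in the fit 1 fell. Summed megakaryocyte markers were 302 to 703 FPKM in treated knockout and 427 to 579 in treated wild type.

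Cell division genes gave a single call. Of 48 tested cell cycle genes 1 rose and none fell, with a median of 0.12 (log2), where 0.887% of all tested genes rose. The call was Ccne1, which encodes the S phase cyclin E1, at 99.5, 49.6 and 41.1 FPKM in treated knockout and 23.1, 20.5 and 16.9 FPKM in treated wild type. It lost its call without wild-type library 2 or 3 (limma adjusted p up to 0.0879) and with the Y-linked covariate (0.119). The proliferation marker Mki67 differed by 0.03 ± 0.29 (log2, SE; limma adjusted p = 0.967). In untreated mice 39 of the 48 cell cycle genes were higher in knockout, where 19.4% of all tested genes were, and for 29 of the 48 the interaction test was negative, where 7.95% of all tested genes were, that is, the gap was smaller or turned round with the agonist. None of the 45 tested DNA replication genes and none of the 38 tested DNA repair genes passed limma's test under the agonist. In each list 4 had an unadjusted p under 0.05, as did 2400 of all 11832 tested genes.

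Metabolic and stress genes gave few calls, where 2.01% of all tested genes were called. Their counts at an unadjusted p under 0.05 are to be read beside 2400 of the 11832 tested genes. None of 76 nuclear-encoded respiratory chain genes, 83 ribosomal protein genes, 34 ribosome biogenesis genes, 29 fatty acid oxidation genes or 27 cholesterol synthesis genes passed limma's test, with medians of 0.13, 0.15, 0.21, -0.06 and -0.19 (log2) and with 13, 1, 5, 5 and 6 genes at an unadjusted p under 0.05. Slc16a1, a lactate transporter, was the single rise among 30 glycolysis genes (0.89 ± 0.18 log2, limma adjusted p = 0.0275), and Tomm70a, an import receptor of the outer mitochondrial membrane, the single rise among 32 mitochondrial biogenesis genes (0.54 ± 0.11 log2, limma adjusted p = 0.0348). Immediate early genes, which respond within minutes to stimulation and to cell handling, had the lowest median of the lists, at -0.94 (log2). Of the 24 tested, 23 had a negative difference, and Nfkbia, the inhibitor of NF-κB, passed at 101, 193 and 118 against 359, 303 and 253 FPKM. Of 15 tested mast cell and basophil genes the cytokine gene Il4 fell (20.6, 37.7 and 26.9 against 47.5, 63.0 and 66.6 FPKM) and the receptor gene Il1rl1 rose (9.25, 1.08 and 2.33 against 0.102, 0.205 and 0.231 FPKM). Slc16a1, Tomm70a, Nfkbia, Il4 and Il1rl1 each lost their call when any 1 of the 3 wild-type libraries was left out, with limma adjusted p values up to 0.151, 0.164, 0.148, 0.198 and 0.162. Slc16a1, Tomm70a, Nfkbia and Il4 also lost it without knockout library 1, and Nfkbia, Il4 and Il1rl1 without knockout library 3. None of 55 interferon response, 9 MHC class II, 26 p53 and apoptosis, 30 unfolded protein response or 26 heat shock genes passed limma's test, and 9, 2, 6, 2 and 7 of them had an unadjusted p under 0.05. The lists of 32 DNA methylation and Polycomb genes, 75 mitochondrial ribosomal protein genes, 12 mitochondrially encoded genes, 9 genes of the imprinted list (which leaves out Phlda2) and 3 Akr1c genes held no call either, with 3, 7, 0, 3 and 1 genes at an unadjusted p under 0.05.

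**Figure D4:**
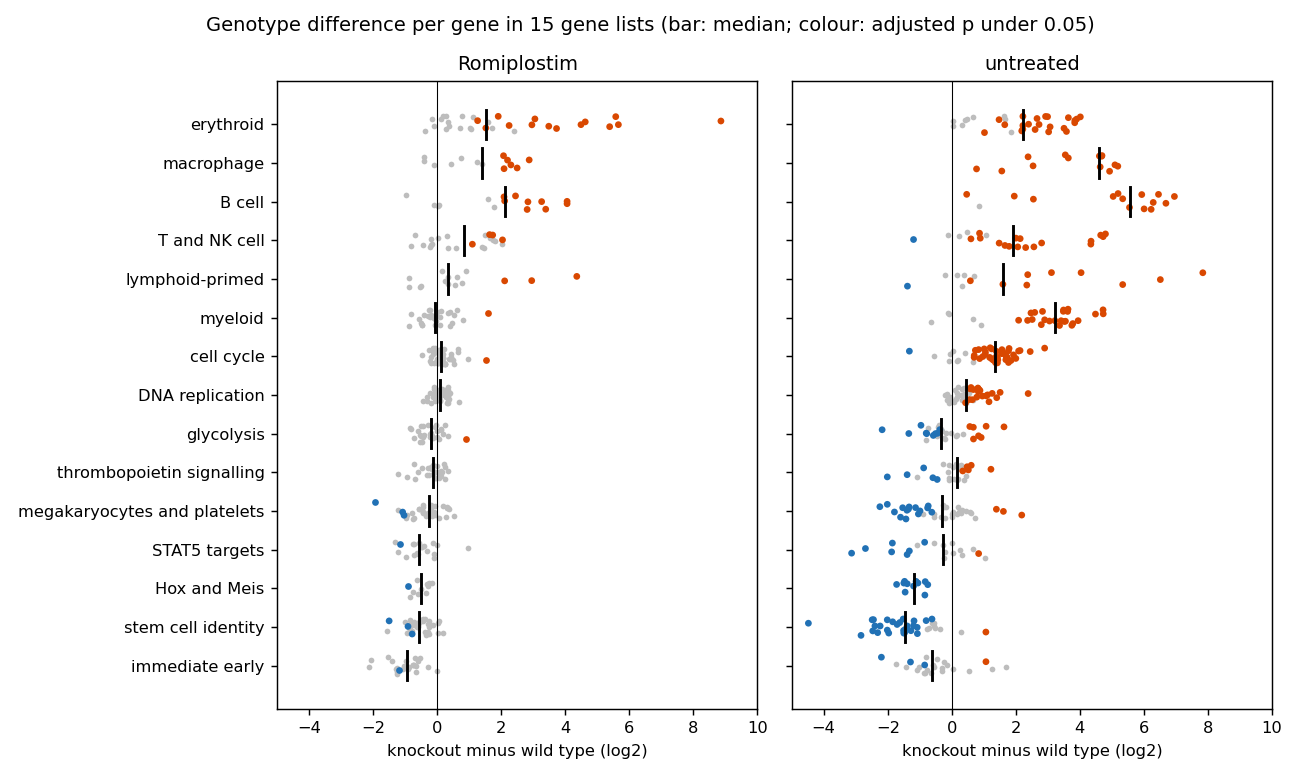
Genotype difference (log2) of each tested gene in 15 lists, with Romiplostim on the left and without treatment on the right. Bars are list medians, and orange and blue points are genes with an adjusted p under 0.05. With the agonist the erythroid, macrophage and B cell medians were 1.52, 1.39 and 2.10, and the stem cell identity median was -0.57 against -1.48 without treatment.

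The genotype differences with the agonist were then set beside those without it, which come from other libraries. Both tests share an estimate of spread per gene over all 12 libraries, so the 2 sets of calls are not fully independent. In untreated mice 5086 of the same 11832 genes differed between genotypes (43.0%), 2293 higher and 2793 lower in knockout. Of the 105 genes that rose under the agonist 96 (91.4%) were also higher in untreated knockout, which is 4.19% of the untreated rises, and none was lower. Of the 133 that fell 101 (75.9%) were also lower in untreated knockout, which is 3.62% of the untreated falls, and 2 were higher. The untreated rises had a median difference of 0.79 (log2) without the agonist and 0.12 with it. The untreated falls had medians of -0.81 and -0.28. The difference between the 2 genotype gaps, tested as an interaction, passed for 1569 genes (13.3%), 628 positive (5.31%) and 941 negative (7.95%). Among the 105 rises it was negative for 27 and positive for 4, and among the 133 falls positive for 21 and negative for 16, so that most of the 238 did not pass it. The count of 1569 was 797 to 2296 when each treated library was left out and 320 with the Y-linked covariate.

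**Figure D5:**
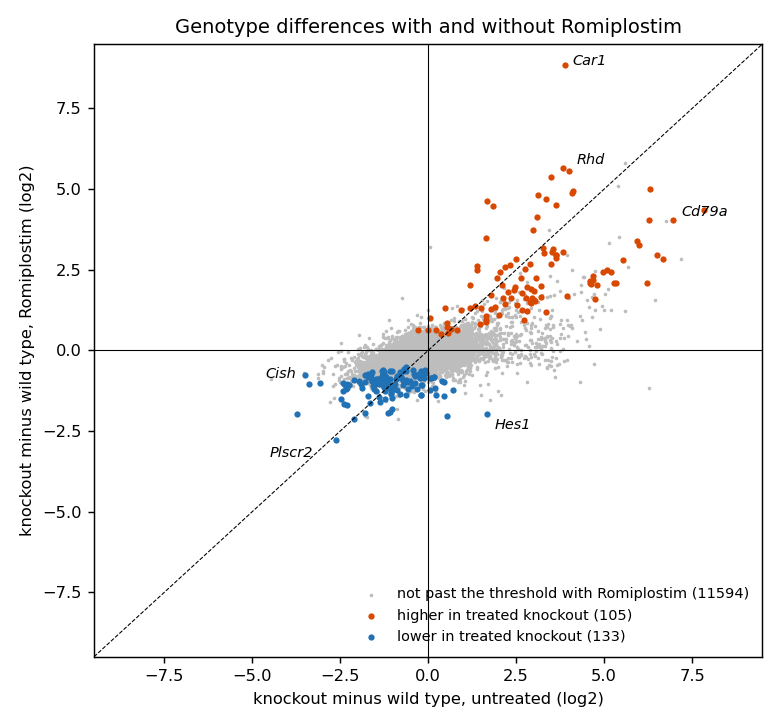
Knockout minus wild type for 11832 genes, without treatment along the horizontal axis and with Romiplostim along the vertical axis (log2). Many of the 105 rises lie between the dashed line of equal differences and the horizontal axis, Car1 lies above the line, and Hes1 is on opposite sides of zero in the 2 conditions.

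The threshold on low values bears on part of the calls. A total of 346 genes lay just inside it, with at least 1 FPKM in exactly 3 of the 6 treated libraries, and 349 lay just outside, in exactly 2. Their medians of the 6-library mean were 1.08 and 0.891 FPKM. Of those just inside, 92 passed through the 3 knockout libraries alone, 72 through the 3 wild-type libraries alone, and 65 were among the 238 calls.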

How the data were processed

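The data are RNA-seq of sorted mouse hematopoietic stem cells in 12 libraries, 4 groups of 3. The authors deposited a single table of FPKM values per gene and library. The submitters' processing notes name mm10, TopHat2 and Cufflinks 2.2.1, without roles. Filters and annotation release are not given in the sources used here. Of 35275 gene IDs 34490 matched GENCODE M21 (mm10), which gave symbols and positions, and 785 did not. Depth was estimated from the steps between low values against M21 exon lengths (49.2% to 54.1% of low values were whole within 0.05), so no count test was run. Floors given for 0 cover counting error only.

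Genes with at least 1 FPKM in 3 of the 6 treated libraries were tested on log2(FPKM + 1), a scale that understates the fold of low genes, with limma 3.58.1 (R 4.3.3). The model had 4 group means over all 12 libraries, an intensity trend and 8 residual degrees of freedom. Tests were two-sided and adjusted by Benjamini-Hochberg over 11832 genes within each contrast. An exact test of 3 against 3 cannot go below p = 0.1. On simulated data 79% of changes of 1 log2 unit and 97% of changes of 2 were recovered, and 14 unchanged genes passed. The simulation gave all groups the same spread per gene, with independent noise, and changed no genes of low level. Its recovery therefore does not describe low genes, the wider spread of treated knockout or a library that shifts many genes together. Named genes were Thpo, the 15 largest rises and falls with a mean of at least 5 FPKM, up to 5 genes per list by p, all thrombopoietin signalling and STAT5 genes and fixed markers; Kel, Klf1, Tfrc, Hbb-bs and Serpinb1a were added after their values were seen. Some genes that this rule takes in are not reported here. The comparison, the gene lists and the alternatives were chosen with earlier results of these data known. Alternatives were another pseudocount (0.1, 5), filter, scaling, trend, libraries in the fit, array weights, a replicate block, a 2-fold criterion and each library left out.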

Additional observations from a re-analysis of the deposited data

Results flagged for a closer look

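For 37 of the genes with values in the text the genotype difference with the agonist differed from that without it by the interaction test, at a limma adjusted p under 0.05. The values below are the treated minus the untreated genotype difference (log2), where positive means higher in knockout relative to wild type under the agonist. Of all genes 13.3% of those tested passed this test.

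Among these genes, Car1 was higher in treated knockout with a widened gap, at 4.96. The gap was smaller under the agonist in the iron exporter gene Slc40a1 (-2.60) and in the macrophage genes C1qa (-2.56), C1qb (-2.48) and Fcna (-2.39). It was also smaller in the lymphoid genes Cd79a (-2.90), Vpreb3 (-2.54), Mzb1 (-2.75), Fcmr (-3.85), Dntt (-3.56) and Blnk (-3.23). Ly86 (-3.13), Ccne1 (-1.39) and Ccna2 (-1.28) narrowed as well. Mpo (-3.40) and Cd48 (-2.50), which were higher in untreated knockout, were not called under the agonist.

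The interaction was negative in genes that were lower in treated knockout, namely Hes1 (-3.67), Ffar2 (-2.54), Serpinb1a (-1.92), Bcas1 (-1.86), Il18r1 (-1.27) and Itgb3 (-0.80), and in Itga2b (-1.43), Cdkn1a (-2.35) and Grb2 (-0.76), which were not called there. It was positive, so that a deficit in untreated knockout was smaller under the agonist, in the stem cell genes Procr (2.53), Hlf (1.83), Ly6a (1.53), Cdkn1c (1.48) and Pdzk1ip1 (1.44). The same held for the STAT5 targets Cish (2.39) and Socs2 (1.97), for Vwf (1.45), Gng11 (1.17), Il4 (2.33) and Tnfsf13os (1.77), and for Ccnd1 (1.52), which lay above wild type under the agonist.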

How the results depend on the processing

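The 238 calls of the treated comparison became 57 without a filter on low values (more genes tested), 135 with at least 5 FPKM in 3 libraries (fewer genes tested), 68 with only the 6 treated libraries in the fit, 157 with a 2-fold criterion as well, 3330 with array weights, whose estimation stopped before it converged, and 60 to 1709 when each treated library was left out. Added after seeing the data, the covariate for Y-linked expression gave 38 calls and the replicate block with only the 6 treated libraries 144. None of the 238 calls changed sign in any alternative that tested them. Because the groups did not overlap for these genes, most alternatives could not turn a sign. These were a library left out and another pseudocount, filter, trend or array weight. The interaction count of 1569 became 5428 with array weights, 876 with a 2-fold criterion, 320 with the Y-linked covariate and 797 to 2296 with each treated library left out, and the untreated count of 5086 became 1769 with a 2-fold criterion. Same-numbered treated libraries did not deviate together (correlations -0.03, -0.16 and -0.02), so the numbers were not taken as pairs, and the fit with a replicate block gave 271 calls. The cause was not tested for the array weights, the Y-linked covariate or the rise to 1709 without knockout library 2. Of 63 called genes with values in the text, 31 kept the call without each of the 6 libraries, 24 with the Y-linked covariate and 20 in every alternative. Sign changes occurred only in genes that were not called, whose values (log2) with each treated library left out ran from -0.61 to 0.022 in Procr, -0.13 to 0.24 in Ly6a, -0.35 to 0.20 in Hlf, -0.24 to 0.52 in Mpo, -0.22 to 0.21 in Mki67 and -0.42 to 0.052 in Vwf. With array weights Hlf was at 0.086, Mki67 at -0.12 and Vwf at 0.21. With median-of-ratios scaling the median over all genes was 0.01 (log2), with 127 rises and 120 falls, and the values in the text are not relative to it.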
